A study of Mus musculus with 37 samples.

Results

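The 45 genes described here carry out the unfolded protein response and the ATF4 stress response. They were taken as a named list of ER chaperones, ER-associated degradation genes, stress sensors, ATF4 factors and targets, amino acid synthesis enzymes and tRNA synthetases, and each was found by its symbol among the 24016 genes of the deposited expression table. The measurement was polyA RNA-seq of bone marrow-derived macrophages (BMDMs) from WT C57BL/6J mice and from Arntl-/- mice on a C57BL/6 background. The Arntl-/- mice lack the clock protein Bmal1 throughout the body. The study calls the WT mice littermates in its results and C57BL/6J mice from Charles River in its methods. All mice were male and 6 to 9 weeks old, and their marrow was grown for 6 days with M-CSF and 10% FCS. Cells of both genotypes were untreated (0 h) or stimulated for 6, 24 or 48 h with Kdo2 lipid A (KLA), the part of lipopolysaccharide that TLR4 recognizes. Each of the 8 conditions was represented by 1 library, so no difference below has a replicate check or a test, and the intervals in the text are exact 95% intervals that cover counting error only.

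Unfolded proteins in the ER activate the sensors Ire1 (Ern1), Perk (Eif2ak3) and Atf6, and the chaperone BiP (Hspa5) holds these sensors inactive when it is not occupied. Ire1 splices Xbp1 mRNA, cleaved Atf6 enters the nucleus, and both factors induce chaperones and degradation genes through ER stress response elements. Perk and other kinases phosphorylate eIF2α, which favors translation of Atf4, an activator of amino acid synthesis and tRNA charging genes. Since Atf4 is controlled largely at translation and Xbp1 by splicing, mRNA levels of these factors are not a measure of their activity.

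Of the 45 members, 44 reached 100 reads after scaling in at least 1 WT library, as did 10487 genes in all, and Chac1 did not. Levels are given as FPKM (fragments per kilobase, here per 10000000 reads) scaled between libraries. Differences are log2 ratios of scaled FPKM plus 0.1. A gene is counted as higher or lower when it differed by at least 1.5-fold, and the share of all 10487 genes that did so stands beside each first count. The libraries held between 8587560 and 27036783 reads on genes, and the WT 6 h library was the deepest. Arntl mRNA itself was read at 34.3, 32.3, 35.6 and 38.7 scaled FPKM in WT and at 13.9, 11.3, 18.8 and 20.2 in Arntl-/- macrophages, in the order 0, 6, 24 and 48 h that is used throughout. All 8 macrophage markers examined reached the minimum, and their sum was at 20161, 15088, 26635 and 37621 scaled FPKM in WT and at 16992, 20359.6, 24967 and 33589.7 in Arntl-/- cells. Of 7 stromal markers 6 reached it, and the summed list was at 547 scaled FPKM at 0 h and 1439 at 48 h in WT and at 397 and 805 in Arntl-/- cells. Of 8 neutrophil markers 3 reached it, and the summed list lay between 528 and 928 in WT and between 860 and 1033 in Arntl-/- libraries, with Mpo and Elane at or below 3 reads in each. Single neutrophil markers went opposite ways, since S100a8 was at 308 scaled FPKM at 0 h and 910.3 at 48 h in WT and at 401 and 905 in Arntl-/- cells, while S100a9 was at 164 and 10.1 in WT and at 403 and 9.00 in Arntl-/- cells. Ltf was at 0 reads in both 48 h libraries. No marker of B cells, T cells, dendritic cells, mast cells or erythroid cells reached the minimum, and the sum of each of these lists was at most 15.0. In such bulk samples a different number of cells and a different amount of RNA per cell cannot be told apart.

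Chaperone genes are known to be reached by Atf6 and Xbp1 through short promoter elements, and these are shown because all 14 chaperones stood on the same side of WT at 48 h. The part of these elements in that difference was not tested. The ER stress response element (ERSE) is CCAAT and CCACG with 9 bases between them. It was searched on both strands from 250 bases before to 50 bases after the start of each gene as the table gives it, in the mm9 genome. It was found in 7 of the 14 chaperone promoters and in 12 of all 10487 promoters (0.114%). The capitals mark CCAAT and CCACG, and 10 bases are shown on each side.
Hspa5, chr2:34627535-34627573, plus strand: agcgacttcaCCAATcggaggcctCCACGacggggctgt
Hsp90b1, chr10:86168268-86168306, plus strand: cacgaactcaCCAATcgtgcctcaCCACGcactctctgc
Calr, chr8:87370964-87371002, plus strand: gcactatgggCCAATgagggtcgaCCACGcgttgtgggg
Canx, chr11:50139292-50139330, minus strand: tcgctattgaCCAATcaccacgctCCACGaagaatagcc
Pdia6, chr12:17273287-17273325, plus strand: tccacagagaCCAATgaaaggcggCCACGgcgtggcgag
Dnajc3, chr14:119337039-119337077, plus strand: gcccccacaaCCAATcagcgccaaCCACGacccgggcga
Creld2, chr15:88649940-88649978, minus strand: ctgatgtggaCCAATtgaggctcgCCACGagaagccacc
The elements shown began from 65 bases (Hspa5) to 162 bases (Calr) before the gene start, upstream of the first exon of the deposited transcript. A shorter form, ERSE-II (ATTGG, 1 base, CCACG), was found in Dnajb11, Manf, Hyou1 and Herpud1, against 10 of all promoters (0.0954%). It is shown for Hyou1 and Herpud1 with the element in capitals.
Hyou1, chr9:44187538-44187568, minus strand: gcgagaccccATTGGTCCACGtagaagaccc
Herpud1, chr8:96910267-96910297, plus strand: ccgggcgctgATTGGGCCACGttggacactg
The sequence bound by ATF4 with C/EBP factors, the C/EBP-ATF response element (CARE, TGATGNAA on either strand), was found in 9 of the 45 promoters, against 2.03% of all. It is shown for the ATF4 targets Vldlr, Chac1 and Trib3, for Asns and, of the tRNA synthetases, for Gars.
Vldlr, chr19:27291300-27291327, minus strand: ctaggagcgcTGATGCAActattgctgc
Chac1, chr2:119176775-119176802, minus strand: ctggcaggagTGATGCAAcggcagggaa
Trib3, chr2:152169765-152169792, plus strand: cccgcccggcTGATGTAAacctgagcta
Asns, chr6:7643215-7643242, minus strand: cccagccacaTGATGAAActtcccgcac
Gars, chr6:54987955-54987982, minus strand: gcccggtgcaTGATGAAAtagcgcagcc
The E-box CACGTG, the sequence that Bmal1 and its partner Clock bind, was present in 5 of the 45 promoters (Calr, Dnajb9, Manf, Derl1 and Aars), a share of 11.1% against 10.3% of all. The Manf E-box shares bases with the ERSE-II of that promoter. The unfolded protein response element (UPRE, TGACGTGG) was found in Hyou1 alone among the members, where it shares bases with an ERSE-II, against 0.868% of all promoters. A match describes letters in a window and is not a measured binding site.

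Between the genotypes few members differed by 1.5-fold at any time. At 0 h 2 of 44 members were higher and 0 were lower in Arntl-/- macrophages, where 3.19% of all genes were higher and 1.98% lower. At 6 h 1 member was higher and 0 were lower, against 2.03% and 2.64% of all genes. At 24 h no member was past 1.5-fold in either direction, against 3.59% and 3.11%. At 48 h 1 member was higher and 2 were lower, against 5.74% and 5.91%. Vldlr was the only member past 1.5-fold in the same direction at 2 or more times, which 3.91% of all genes were. Over the members the log2 ratio of Arntl-/- to WT had a median of -0.05, 0.09, -0.08 and -0.17, and the median of all genes lay between -0.02 and 0.01. Of the 44 members, 17, 31, 17 and 13 lay above 0. Of all 10487 genes 5017, 5370, 5196 and 4927 did so, and of the 1049 most abundant of them 160, 1024, 183 and 367.

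**Figure D1:**
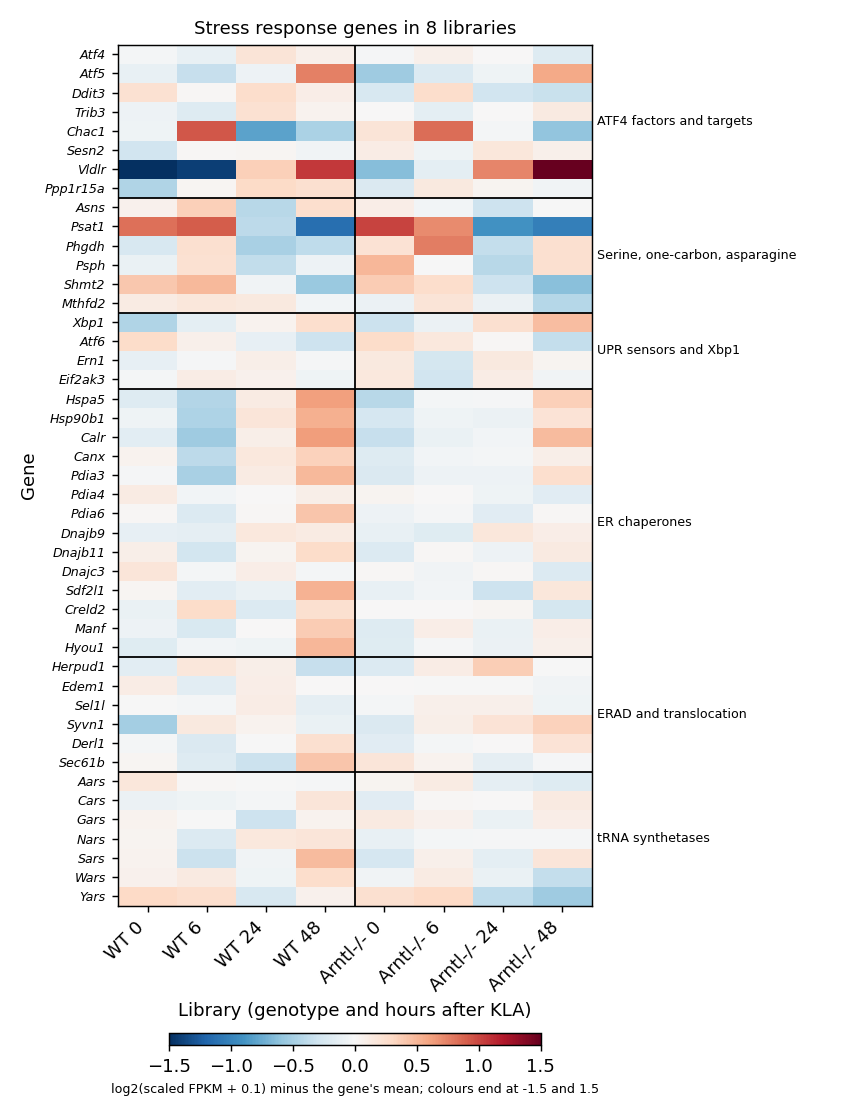
Levels of the 45 members (rows, grouped by role) in the 8 libraries (columns, WT at the left and Arntl-/- at the right, hours after KLA), as log2(scaled FPKM + 0.1) minus the mean of the gene over the libraries, with the color scale ending at -1.5 and 1.5. Vldlr, Psat1, Shmt2 and Atf5 differ in color between early and late times in both genotypes, and most chaperone rows are reddest in the WT 48 h library.

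Among the factors that carry the ATF4 response, Atf4 mRNA was abundant and stayed within 1.5-fold in every comparison. It was read at 739.6, 699, 866 and 800.0 scaled FPKM in WT and at 746, 801, 761 and 664 in Arntl-/- macrophages. Its log2 ratio of Arntl-/- to WT was 0.01, 0.20, -0.19 and -0.27, and no ratio to 0 h reached 1.5-fold in either genotype. The highest value was that of WT at 24 h and the lowest that of Arntl-/- at 48 h. After centering on genes of similar level the Atf4 ratio to WT at 6 h was -0.12. The ratio to 0 h was then 0.23 in WT at 6 h and -0.55 in Arntl-/- cells at 48 h, short of 1.5-fold. Ddit3 encodes Chop, the pro-apoptotic factor of the ER stress response. Ddit3 was read at 483, 417, 493 and 443 scaled FPKM in WT and at 348, 494, 337 and 328 in Arntl-/- cells. It was thus lower in Arntl-/- cells at 0, 24 and 48 h and higher at 6 h, by log2 ratios of -0.47, 0.24, -0.55 and -0.43. The counting interval at 24 h ran from -0.70 to -0.39, and the ratio stayed just short of 1.5-fold. Of the exon bases of Ddit3, 3.97% are shared with Mars on the opposite strand, and the counting did not use strand.

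Vldlr (chr19:27291510-27328721), a receptor for apolipoprotein E-containing lipoproteins and an ATF4 target under ER stress, had the lowest level of the analyzed members and the largest change. It was read at 2.01, 2.27, 7.93 and 13.0 scaled FPKM in WT and at 3.94, 5.56, 10.4 and 19.3 in Arntl-/- macrophages. Each WT value was below the Arntl-/- value of the same time, and each later value was above the one before it in both genotypes. The 0 h values rested on 35 reads in WT and 101 in Arntl-/- cells. Vldlr was 6.19-fold higher at 48 h than at 0 h in WT (counting interval 4.43 to 9.62) and 4.79-fold higher in Arntl-/- cells (3.83 to 6.27). The ratio of Arntl-/- to WT was 1.91-fold at 0 h (1.32 to 2.97), 2.39-fold at 6 h (1.85 to 3.26), 1.30-fold at 24 h (1.03 to 1.66) and 1.48-fold at 48 h (1.19 to 1.85).

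Atf5, a factor translated like Atf4 and itself induced by Atf4 and Chop, was higher late after KLA in both genotypes. It was read at 253, 216, 260.2 and 463 scaled FPKM in WT and at 189.5, 238, 263 and 408 in Arntl-/- cells. Atf5 shares 4.12% of its exon bases with genes on the opposite strand. The 48 h libraries held the highest Atf5 values and the 0 h Arntl-/- library the lowest. Atf5 at 48 h was 1.83-fold its 0 h level in WT (1.68 to 2.0) and 2.15-fold in Arntl-/- cells (1.97 to 2.35). Ppp1r15a (Gadd34) guides the phosphatase that ends eIF2α phosphorylation. Ppp1r15a was read at 166, 230.5, 276 and 267 scaled FPKM in WT and at 194, 251, 232 and 217 in Arntl-/- cells. It was past 1.5-fold in WT at 24 h (1.66-fold, 1.52 to 1.82) and 48 h (1.61-fold, 1.46 to 1.78), with log2 ratios to 0 h of 0.26 and 0.16 at these times in Arntl-/- cells. In the values as deposited Ppp1r15a no longer passed 1.5-fold in WT at 48 h. Trib3, a pseudokinase induced through ATF4 and Chop, stayed between 47.5 and 63.6 scaled FPKM, and Sesn2, a sensor of leucine that restrains mTORC1, between 130.1 and 178. Neither reached 1.5-fold in any comparison. Chac1, which breaks down glutathione, was read from only 16 to 176 reads and was named after its values were seen. It stood at 11.5, 23.0, 6.87 and 8.63 scaled FPKM in WT and at 13.7, 21.6, 11.7 and 7.97 in Arntl-/- cells, so that the 6 h libraries were the highest in both.

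**Figure D2:**
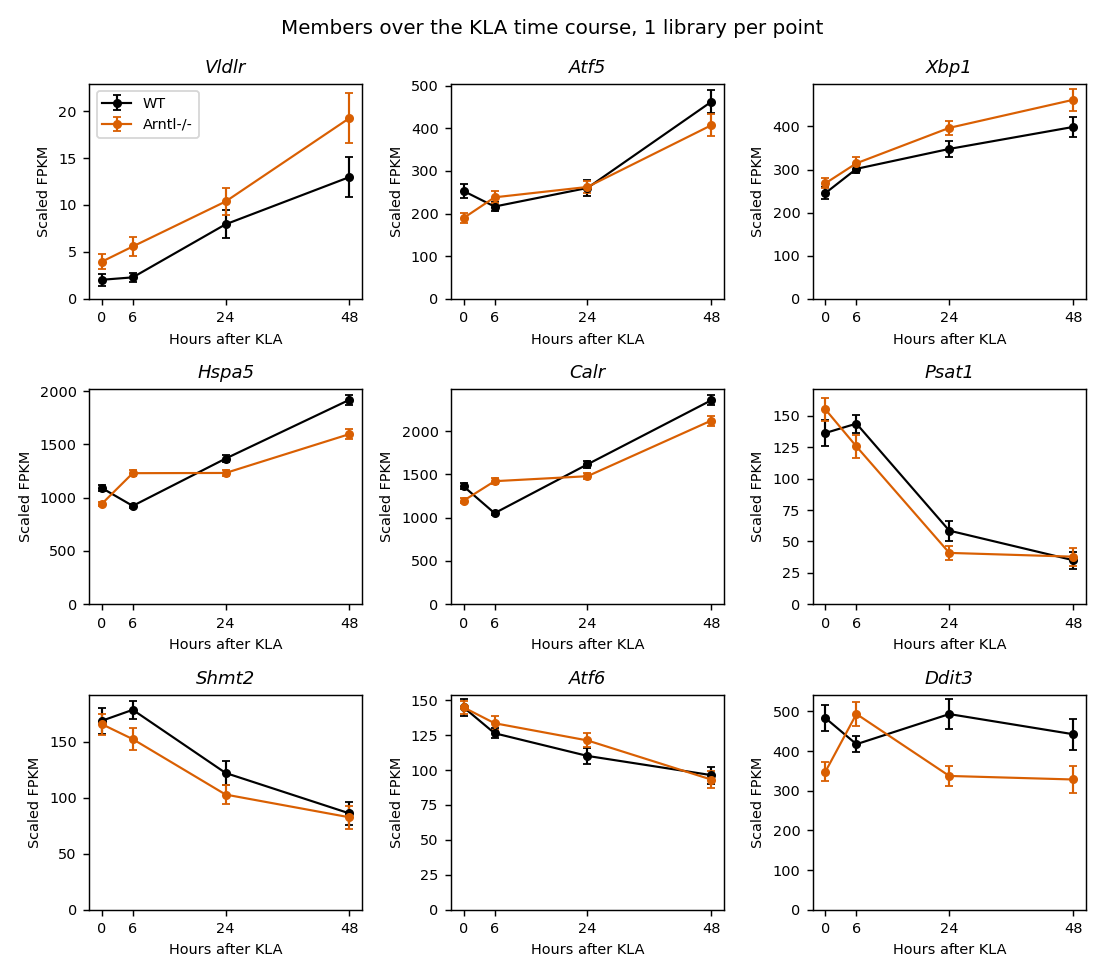
Scaled FPKM (vertical axis, from 0) of 9 members against hours after KLA (horizontal axis), with WT in black and Arntl-/- in orange. Each point is 1 library and the bars are approximate 95% counting intervals from the number of reads. Vldlr lies higher in Arntl-/- at each time, Psat1 and Shmt2 lie lowest at 48 h in both genotypes, and Hspa5 and Calr end highest at 48 h with WT above Arntl-/-.

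Enzymes of serine and one-carbon metabolism, which ATF4 induces when amino acids are short, included the members that were lowest relative to 0 h late after KLA. Psat1 (chr19:15979613-15999549), the aminotransferase of serine synthesis, was read at 136, 144, 58.6 and 35.0 scaled FPKM in WT and at 155, 126, 40.8 and 37.8 in Arntl-/- macrophages. Every 0 and 6 h library thus lay above every 24 and 48 h library. Psat1 at 48 h was 3.89-fold lower than at 0 h in WT and 4.09-fold lower in Arntl-/- cells, with counting intervals of the log2 ratio from -2.28 to -1.66 and from -2.34 to -1.75. Shmt2, which passes a one-carbon unit from serine to folate in mitochondria, showed the same order over time. Shmt2 was read at 169, 179, 122 and 86.1 scaled FPKM in WT and at 166, 152, 103 and 82.6 in Arntl-/- cells, and was 1.96-fold and 2.01-fold lower at 48 h than at 0 h. Mthfd2, the next mitochondrial enzyme, did not reach 1.5-fold in any comparison, with levels from 198 to 304.

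Phgdh, which starts serine synthesis, and Psph, which ends it, did not share the low 48 h levels of Psat1, and Phgdh was named after its values were seen. Phgdh was read at 40.4, 56.7, 34.1 and 36.7 scaled FPKM in WT and at 55.9, 81.8, 37.2 and 56.6 in Arntl-/- cells. Phgdh was higher in Arntl-/- cells at each time, by log2 ratios of 0.47, 0.53, 0.13 and 0.62, of which that at 48 h passed 1.5-fold (1.54-fold, counting interval 1.17 to 2.03, from 135 and 91 reads). Psph was read at 36.4, 45.8, 30.1 and 36.8 scaled FPKM in WT and at 54.9, 38.9, 29.3 and 45.9 in Arntl-/- cells. Its highest value was in the Arntl-/- 0 h library, 1.51-fold above WT (1.21 to 1.89), which became a log2 ratio of 0.52 after centering on genes of similar level. At 24 h against 0 h, Psat1, Psph and Phgdh were all past 1.5-fold lower in Arntl-/- cells, by log2 ratios of -1.92, -0.91 and -0.59, and in WT Psph and Phgdh stood at -0.27 and -0.24. Asns, the asparagine synthetase and a standard ATF4 target with a CARE in its promoter, was read between 67.7 and 116 scaled FPKM and was lowest at 24 h in both genotypes.

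The sensors differed little between genotypes, and Xbp1 and Atf6 had opposite orders over time. Xbp1 (chr11:5420644-5425996) was read at 245, 302, 348 and 399 scaled FPKM in WT and at 268, 314, 397 and 462 in Arntl-/- macrophages. Each later value was above the one before it in both genotypes, and each Arntl-/- value was above the WT value of its time, although after centering by level the ratio to WT at 6 h was -0.06. Xbp1 at 48 h was 1.63-fold its 0 h level in WT (1.5 to 1.76) and 1.72-fold in Arntl-/- cells (1.61 to 1.85). In the values as deposited the WT log2 ratio was 0.56, below 1.5-fold. The log2 ratio of Arntl-/- to WT was 0.13, 0.06, 0.19 and 0.21. Gene-level reads do not separate spliced from unspliced Xbp1. Atf6 was read at 145, 126, 110.1 and 96.4 scaled FPKM in WT and at 145, 134, 121 and 93.2 in Arntl-/- cells, each later value below the one before it. Atf6 at 48 h was 1.5-fold and 1.55-fold lower than at 0 h, and both log2 ratios became -0.52 after centering by level. Ern1, the Ire1 kinase and nuclease, was read at 146, 157, 169 and 157 in WT and at 175, 132, 176 and 163 in Arntl-/- cells. Eif2ak3, the Perk kinase, was read at 68.8, 75.8, 73.3 and 67.1 in WT and at 78.9, 57.8, 76.3 and 67.6. Both kinases had their lowest value in the Arntl-/- 6 h library and reached 1.5-fold in no comparison.

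The ER chaperones, which bind and fold secreted proteins, were the most abundant members, with a median mean level of 539 scaled FPKM, and 8 of the 14 were among the 1049 most abundant of the 10487 genes. Hspa5 (chr2:34627610-34632049) was read at 1091, 923, 1367 and 1920 scaled FPKM in WT and at 942, 1230.2, 1232 and 1597 in Arntl-/- macrophages. The 48 h libraries were the highest in each genotype, and Arntl-/- was below WT at 0, 24 and 48 h and above it at 6 h. Calr, the calcium-binding lectin chaperone with the highest mean level of all members (1577), was read at 1362, 1052, 1617 and 2358 in WT and at 1197, 1422, 1480 and 2124 in Arntl-/- cells, in the same order. Hspa5 at 48 h was 1.76-fold its 0 h level in WT (1.70 to 1.82) and 1.70-fold in Arntl-/- cells (1.64 to 1.76). Calr was 1.73-fold (1.67 to 1.80) and 1.77-fold (1.71 to 1.84) its 0 h level. After centering by level the log2 ratio to WT was 0.02, -0.01, 0.04 and -0.21 for Hspa5. For Calr it was 0.07, -0.03, 0.08 and -0.09, so both genes turned direction at 0, 6 and 24 h.

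Abundant genes at large were also higher at 48 h than at 0 h. The median log2 ratio of 48 h to 0 h was 0.43 over the 14 chaperones in WT and 0.28 in Arntl-/- cells, and 0.31 and 0.45 over those 1049 genes. After each ratio was centered on genes of similar level, Hspa5 kept log2 ratios of 0.44 in WT and 0.20 in Arntl-/- cells, and Calr of 0.37 and 0.21, all below 1.5-fold. The chaperone median then became 0.25 in WT and 0.01 in Arntl-/- cells, where 7 of the 14 chaperones lay above 0. Hsp90b1 (Grp94) and Hyou1 (Grp170) were the other chaperones past 1.5-fold in WT at 48 h, by log2 ratios of 0.60 and 0.68, and were named after their values were seen. Their ratios in Arntl-/- cells were 0.46 and 0.26. After centering by level Hsp90b1 stood at 0.20 in WT, and Hyou1 at 0.60 was the only chaperone still past 1.5-fold. In the values as deposited neither passed 1.5-fold. Hsp90b1 shares 10.3% of its exon bases with a lincRNA on the opposite strand. Chaperones with an ERSE or ERSE-II in the promoter and those without had medians of 0.43 (10 genes) and 0.37 (4 genes) in WT and of 0.29 and 0.25 in Arntl-/- cells.

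The other 10 chaperones passed 1.5-fold in no comparison, with levels from 129 scaled FPKM (Dnajb9) to 1334 (Pdia3). They include calnexin (Canx), the disulfide isomerases Pdia3, Pdia4 and Pdia6, the DnaJ partners of BiP (Dnajb9, Dnajb11 and Dnajc3) and the ER-resident proteins Sdf2l1, Creld2 and Manf. Dnajc3 and Pdia4 were the only chaperones at or below their 0 h level at 48 h in WT, and Creld2 joined them in Arntl-/- cells.

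At 48 h all 14 chaperones were lower in Arntl-/- than in WT macrophages, by a median log2 ratio of -0.26, and none reached 1.5-fold. At that time 5559 of all 10487 genes, 682 of the 1049 most abundant and 31 of the 44 members were below 0. Of 20 further ER folding genes 12 were below 0, with a median of -0.11. The chaperone ratios ran from -0.51 to -0.02. Chaperones with an ERSE or ERSE-II in the promoter had a median of -0.27 (10 genes) and those without one of -0.25 (4 genes). Hspa5 stood at -0.27 (counting interval -0.32 to -0.21), Hsp90b1 at -0.33 (-0.38 to -0.28) and Hyou1 at -0.42 (-0.51 to -0.33). The 1049 most abundant genes had a median of -0.05 at this time, and after centering by level the chaperone median was -0.22 with 14 of 14 below 0. In the values as deposited it was -0.22 with 1 of 14 above 0. Each of the ratios compared the same 2 libraries, so the 14 genes are not separate evidence for a difference between genotypes. Summed stromal markers were at 1439 scaled FPKM in the WT and 805 in the Arntl-/- library of that time, and their part in the result was not tested. Col1a1, Col1a2, Col3a1 and Sparc made up most of these sums and were lower in Arntl-/- cells, whereas Dcn was at 62.3 in WT and 91.3 in Arntl-/- cells and Lum at 7.6 and 9.03.

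The sign of the chaperone difference turned at 6 h. The chaperone median of Arntl-/- against WT was -0.15 at first, 0.24 after 6 h and -0.12 after 24 h, on the log2 scale, with 2, 11 and 2 of the 14 above 0. The 1049 most abundant genes moved with it, at -0.18, 0.33 and -0.14. After centering by level the chaperone medians were 0.00, -0.04 and -0.04. In WT the chaperone median at 6 h was -0.22 against 0 h, and that of the most abundant genes was -0.35. The WT 6 h library was the deepest, and 27 of the 44 members there exceeded 1 read per exon base, against 5 to 15 in the other libraries. The highest density was 5.14 reads per base for Calr in that library, and Calr was above 3 reads per base in 5 of the 8 libraries. The authors' counting was set to keep at most 3 reads per position, a limit that these densities show was not applied over the 2 strands jointly. The part of this limit in the 6 h values was not tested. The summed macrophage markers likewise were lower in Arntl-/- than in WT cells at 0, 24 and 48 h and higher at 6 h. Lyz2 was the largest part of these sums, and Emr1, Cd68, Itgam and Lyz2 had these directions at each time. Csf1r and Cd14 were higher in Arntl-/- cells at 48 h (log2 ratios of 0.11 and 0.19). Fcgr1 was higher at 0 and 24 h (0.06 and 0.14), and Mertk was lower at 6 h (-0.36) and higher at 24 h (0.16). The part of these markers was not tested.

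**Figure D3:**
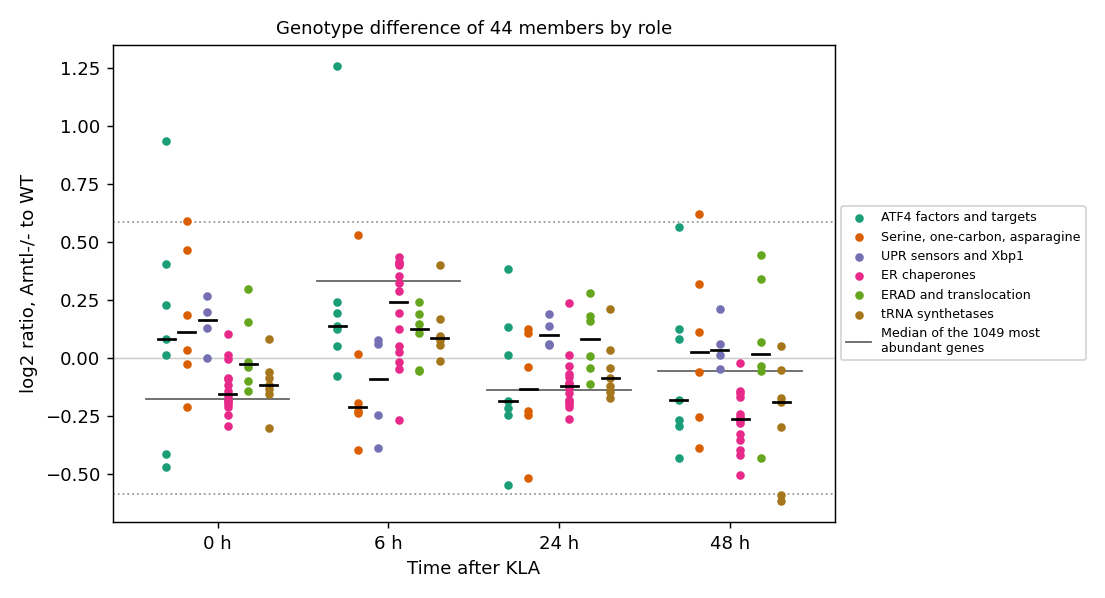
The log2 ratio of Arntl-/- to WT (vertical axis) of the 44 analyzed members at 0, 6, 24 and 48 h after KLA (horizontal axis). Each point is a gene, colored by role, short black bars are role medians, gray lines are medians of the 1049 most abundant genes, and dotted lines mark 1.5-fold. The chaperone median lies on the same side of 0 as the gray line at each time, and all chaperone points lie below 0 at 48 h, at a median of -0.26.

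Genes of ER-associated degradation and translocation, which pull misfolded proteins back to the cytosol or let new chains in, were within 1.5-fold of their 0 h levels in every library, except Syvn1. Syvn1, the ubiquitin ligase Hrd1, was read at 125, 197, 184 and 166 scaled FPKM in WT and at 153, 189, 206 and 226 in Arntl-/- macrophages. The WT 0 h library was the lowest. Syvn1 was 1.57-fold higher in WT at 6 h than at 0 h (1.46 to 1.70), the only member of 44 past 1.5-fold then, where 5.36% of all genes were higher and 3.59% lower. Herpud1, a stress-induced part of the Hrd1 complex with both an ERSE-II and a CARE in its promoter, ranged from 90.6 to 149. Edem1, Sel1l, Derl1 and Sec61b likewise did not reach 1.5-fold in any comparison. The group median of the log2 ratio of Arntl-/- to WT was -0.03, 0.13, 0.08 and 0.02.

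Of the 7 tRNA synthetases, which charge tRNAs with amino acids and are induced by ATF4, only Wars and Yars passed 1.5-fold between genotypes, and Wars was named after its values were seen. Wars, for tryptophan, was read at 128, 134, 118 and 147 scaled FPKM in WT and at 118, 133, 114 and 95.8 in Arntl-/- cells, so that the genotypes separated at 48 h (1.53-fold lower, counting interval of the log2 ratio -0.81 to -0.42). Yars, for tyrosine, was read at 135, 129.5, 92.5 and 114 in WT and at 129, 135, 83.7 and 75.4 in Arntl-/- cells, 1.51-fold lower at 48 h (-0.82 to -0.37). In the values as deposited neither passed 1.5-fold, and after centering by level Yars stood at -0.58. Both genotypes had less Yars at 24 than at 0 h, with log2 ratios of -0.54 in WT and -0.63 in Arntl-/- cells. Neither Wars nor Yars held a CARE in the window searched, whereas Aars, Cars, Gars and Nars did, and those 4 reached 1.5-fold in no comparison. Sars, for serine, held no CARE there either and likewise stayed within 1.5-fold, between 229 and 399 scaled FPKM.

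Counted over the whole list, in WT 2 members were higher and 1 lower at 24 h, against 8.69% and 8.83% of all genes, and 8 were higher and 3 lower at 48 h, against 13.5% and 15.1%. The 8 became 4 in the values as deposited and 5 after centering by level. In Arntl-/- macrophages 0 members were higher or lower at 6 h (3.09% and 3.39% of all genes), 1 was higher and 5 lower at 24 h (7.8% and 9.57%), and 5 were higher and 4 lower at 48 h (15.2% and 17.2%). Of the 1049 most abundant genes, which include 11 of the members, 222 in WT and 392 in Arntl-/- cells were higher at 48 h. Of the same genes, 17 in WT and 16 in Arntl-/- cells were lower. The members lower at 24 h in Arntl-/- cells were Psat1, Phgdh, Psph, Shmt2 and Yars, and Phgdh stood at -0.53 after centering by level, short of 1.5-fold. No member was past 1.5-fold in both genotypes at 6 h, against 1.34% of all genes higher and 0.448% lower in both. At 24 h Vldlr alone was higher in both and Psat1 alone lower, 1 of 44 members each, against 4.98% and 4.89%. Atf5, Vldlr, Xbp1, Hspa5 and Calr were higher at 48 h in both genotypes, 5 of 44 members against 9.36% of all genes, and Psat1, Shmt2 and Atf6 were lower in both, 3 of 44 against 10.5%. After centering by level Hspa5, Calr and Atf6 passed 1.5-fold in neither genotype, and in the values as deposited Xbp1 did not pass in WT. Gars, Phgdh, Vldlr and Xbp1 lay above WT at all 4 times in Arntl-/- cells, and Dnajc3, Shmt2 and Wars below it, against 7.84% and 7.49% of all genes. After centering by level, Xbp1 (-0.06) and Wars (0.01) turned direction at 6 h. The 5 members with an E-box had a median log2 ratio to WT of -0.15 at 48 h, and the 39 without one -0.18.

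**Figure D4:**
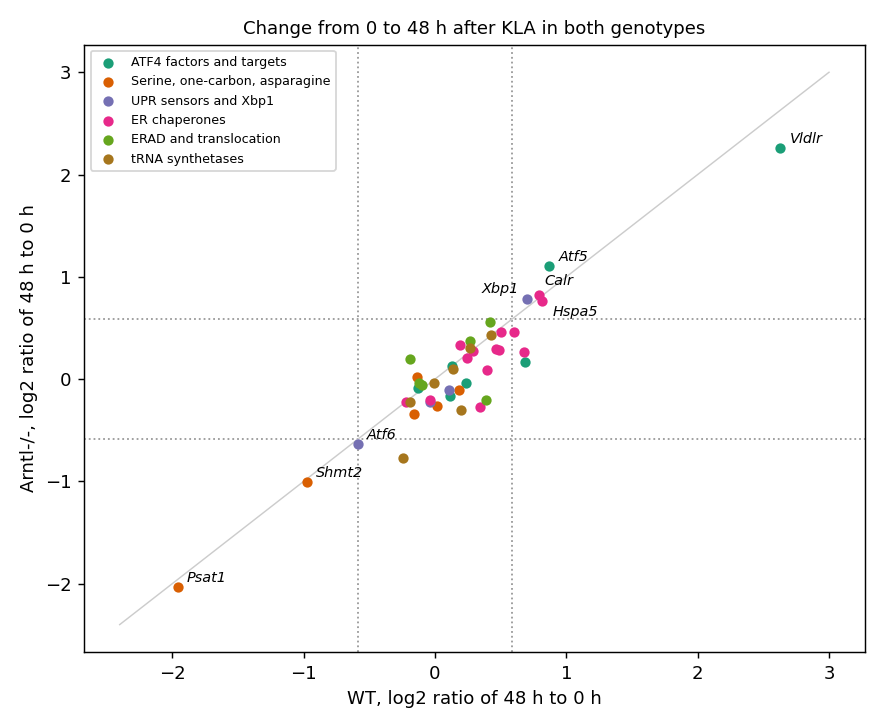
The log2 ratio of 48 h to 0 h in Arntl-/- (vertical axis) against that in WT macrophages (horizontal axis) for the 44 analyzed members, colored by role. Dotted lines mark 1.5-fold, the gray line marks equal ratios, and the 8 named genes passed 1.5-fold in both genotypes, with Vldlr the highest at 2.63 and 2.26 and Psat1 the lowest at -1.96 and -2.03.

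A further 123 genes of the same pathways were listed, and 112 of them were analyzed. Between genotypes 0 were higher and 2 lower before KLA. The numbers higher and lower were 4 and 2 at 6 h, then 3 and 2 at 24 h, and finally 9 and 2 in the 48 h libraries. Of all genes, 5.74% were higher and 5.91% lower at that last time. Of the 9, 5 were mitochondrial tRNA synthetases, of which 16 were analyzed. Nars2 and Mars2 had log2 ratios of 1.21 and 1.14 from 32 to 81 reads, but 6 of the 16 lay below 0, down to -0.58, and the median was 0.12. At 48 h against 0 h, 19 were higher and 11 lower in WT, and 17 and 13 in Arntl-/- cells. In WT the counts were 4 and 2 after 6 h of KLA and 8 and 10 after 24 h, and in Arntl-/- cells 5 and 1, then 6 and 9. Of the 20 further ATF4 targets, 6 were higher and 2 lower at 48 h in both genotypes, against 9.36% and 10.5% of all genes. Slc6a9, a glycine transporter, had log2 ratios of 3.26 and 3.07, and Slc7a1, a transporter of arginine and lysine, of -1.72 and -2.0. Slc7a11, which imports cystine, stood at 1.88 and 1.76. Shmt1, the cytosolic counterpart of Shmt2, stood at -1.41 and -2.08. The 13 other cytosolic tRNA synthetases had a median of -0.32 in both genotypes.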

How the data were processed

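The authors aligned polyA RNA-seq reads to mm9 with STAR at default parameters and deposited FPKM values made with HOMER over exons, without regard to strand, limited to 3 reads per position, condensed by gene and normalized to 10000000 reads. Tool versions are not given in the sources used here. The deposited lengths (in bases, not a measured level) and FPKM steps gave back whole read numbers. Read densities above 3 per base show that the limit did not hold over both strands together. Such a limit lowers counts most where reads per base are high, as for abundant genes in deep libraries. Of the value columns, 4 (KLA at other times) match no sample and were not used, 1 fragment line was left out, and the 29 ChIP and input samples were not analyzed here.

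Columns were matched to samples by genotype and time. Size factors were medians of ratios over the 8 libraries. Genes needed 100 scaled reads in 1 WT library, which is the study's own minimum. Ratios were taken on log2(scaled FPKM + 0.1), and 1.5-fold is the study's line. With 1 library per condition no test was run. Intervals are Clopper-Pearson intervals of read numbers and cover counting error only. Centering by level subtracted a lowess curve (fraction 0.3) of the ratio against mean level. Scripts were tested on simulated data. Members, role groups, pathway lists and markers were chosen with earlier results of these data known. Values in every library are given for the regulators, for members past 1.5-fold between genotypes at 2 or more times, and for the 3 members with the largest changes per direction and time. Others are given by range and count or named as chosen after their values were seen. The 45 promoters were read from the mm9 genome at the deposited start. In the GENCODE annotation of that build, 13 of the 45 members share exon bases with another gene (0.409% to 10.3% of their exon bases). Multigene copies were not resolved. Alternatives were upper-quartile scaling, no scaling beyond that deposited, centering by level, pseudocounts of 1 and 0.01, a minimum of 1 FPKM and no filter. The software was Python 3.11.15 with pandas 2.3.3, numpy 2.4.6, statsmodels 0.14.6, scipy 1.17.1 and matplotlib 3.10.9.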

Additional observations from a re-analysis of the deposited data

How the results depend on the processing

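No paired analysis by replicate number was possible because each condition had 1 library and the labels carry no such numbers. A fit of genotype and time over the 8 libraries, with the times standing in for replicates, was not run. No named value past 1.5-fold turned direction under any alternative run. Smaller ratios did, above all after centering by level, where the chaperone median of Arntl-/- against WT at 6 h went from 0.24 to -0.04, Atf4 from 0.20 to -0.12 and Xbp1 from 0.06 to -0.06, while Wars went from -0.01 to 0.01. Of the 160 recomputed counts of members past 1.5-fold, 137 stayed within 1.5 times the reported count and 23 did not. In the values as deposited, the members higher and lower in Arntl-/- at 48 h were 2 and 0, and those higher in WT were 3 at 6 h and 4 at 48 h. With upper-quartile scaling the 48 h genotype counts were 2 higher and 1 lower. After centering by level the members higher in Arntl-/- were 1 at 0 h, 2 at 6 h and 2 at 48 h with 1 lower, those higher at 48 h in WT were 5, and those higher in Arntl-/- cells were 2 at 6 h and 2 at 24 h. A pseudocount of 1 left 1 member higher in Arntl-/- at 0 h, as did leaving the WT 6 h library out of the size factors and the minimum, an alternative chosen after seeing the data. A minimum of 1 FPKM and no filter both added Chac1, which gave 1 member higher in Arntl-/- at 24 h, 2 higher in WT at 6 h, 2 lower in WT at 24 h and 1 higher in Arntl-/- cells at 6 h. With a pseudocount of 0.01 no count moved by over 1.5 times. Of the recomputed values of named members, 247 stayed within their margin and 17 moved past it, none of these 17 in the opposite direction. The margin was the counting interval for ratios past 1.5-fold. For mean genotype ratios recomputed without the 6 h time it was the standard deviation over the times. Depth limits Vldlr, with 35 reads at its lowest, and Chac1, with 16. The cause of these shifts was not tested.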
